A study of Mus musculus with 20 samples.

Results

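The 500 array probes described here address single N6-methyladenosine (m6A) sites in the RNA that was most abundant in mouse heart muscle, and their ratio of methylated to total signal was neither very high nor very low. They were taken from 14408 site probes on the array, of which 14319 have identifiers of the pattern used. Of these, 9987 were well above background in both colours on at least 5 of 10 arrays. The highest and the lowest 10% by mean ratio were dropped, which left 7991 probes, and the 500 with the highest mean input signal became the members. Members were thus chosen by their detection, mean input and mean ratio over all 10 mice, and these are given below as description only. Genotype was not used in the choice, so the comparison of knockout with wild type is separate from it.

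m6A is a methyl mark placed on adenosines of messenger RNA by a methyltransferase complex that includes Mettl3 and Mettl14. Reader proteins bind the marked RNA, which affects its splicing, translation and decay, and demethylases can remove the mark. The array reads the mark with MazF, a bacterial enzyme that cuts RNA at ACA when the adenosine lacks the methyl group, so that methylated RNA stays whole. A ratio near the middle of the array is therefore a relative reading and not a share of methylated molecules.

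The study measured myocardium of 10 untreated male mice. The KO group held 5 mice lacking natriuretic peptide receptor A, written NPRA-/- in the labels, and the WT group held 5 mice written NPRA+/+. This receptor sits in the cell membrane, binds the natriuretic hormones released by the heart, and produces the messenger cyclic GMP. The series title calls the deficiency cardiac-specific, and the labels describe a conditional line, NprAflox/flox. The Cre driver, the age of the mice and the flox status of the WT mice are not given in the sources used here. Each mouse had 1 two-colour array: Cy5 carried the MazF-digested and antibody-enriched RNA, called modified RNA, and Cy3 carried undigested input RNA. There was no dye swap. Scans listed under the modified and the input sample of a mouse held identical values in 10 of 10 mice, and each mouse was counted once.

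The probe identifiers could not be tied to genes: 0 of the 500 occur in the gene table used here. Members are therefore given by identifier, and gene roles, the targeted gene, heart muscle markers and the probe sequences were not analysed here. The arrays were assigned to 2 slides from the scan headers, with all 5 KO mice and WT replicates 1 to 3 on slide 1 and WT replicates 4 and 5 on slide 2. On slide 1, 4 KO mice lay in array row 1, and the remaining KO mouse and 3 WT mice in row 2. In whole myocardium, fewer cells of a type and less RNA per cell cannot be told apart.

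Members were bright, and none was near the limits of the scanner. All 500 were well above background in both colours on all 10 arrays, against 41.5% of the 14319 probes. No spot of a member was saturated, and 11 Cy5 spots were left out as outliers, which cost 11 members 1 mouse each in the modified RNA and the ratio. Mean input, on a log2 scale where 0 is the 75th percentile of the array, lay between 2.80 and 9.36 with a median of 4.14. Mean modified signal on the same kind of scale lay between 0.36 and 8.46 with a median of 3.74. Mean log2 ratio, with the array median at 0, lay between -2.06 and 1.82 with a median of -0.32. It was negative at 292 members and positive at 208.

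**Figure D1:**
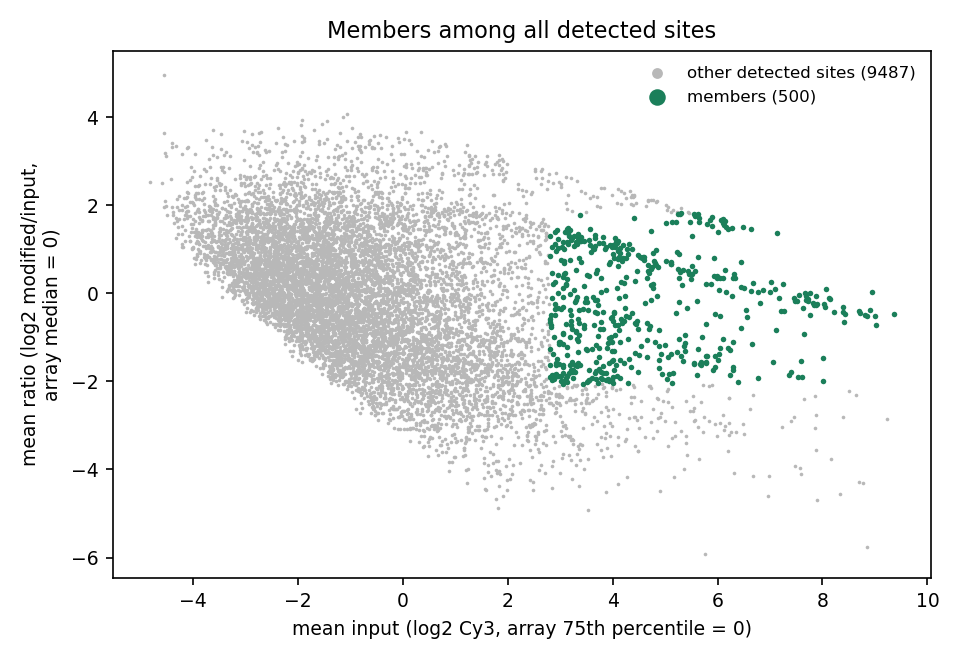
Mean log2 ratio of modified to input RNA (array median at 0) against mean log2 input (75th percentile of the array at 0), for all 9987 detected sites, each a point averaged over 10 mice. The 500 members, in green, fill the right of the plot between ratios of -2.06 and 1.82.

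The probes on both sides of each threshold had nearly equal values. The last member by input, ASMM10m6ADRACA1002828234, had a mean input of 2.80, and the first probe outside, ASMM10m6ADRACA1003028974, had 2.79. At the upper ratio limit, member ASMM10m6ADRACA1004956304 had a mean ratio of 1.822 and the excluded probe ASMM10m6ADRACA1001414304 had 1.825. At the lower limit, member ASMM10m6ADRACA1001338564 had -2.063 and the excluded ASMM10m6ADRACA1003180534 had -2.066.

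Across the 500 members, mean input and mean modified signal correlated with Pearson's r = 0.82, while mean input and mean ratio had r = 0.04. Within single mice, r between input and ratio lay between -0.25 in KO replicate 2 and 0.15 in KO replicate 3. By brightness, the median ratio of each 100 members was -0.22, 0.20, -0.49, -0.39 and -0.50, brightest to dimmest. Since mean input and mean ratio chose the members, these values describe the chosen sites only and say nothing of sites in general. They are across probes of the same arrays, which are not independent, and carry no test.

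ASMM10m6ADRACA1002221934, with the highest mean input of all members, had log2 inputs of 9.34, 9.11, 9.25, 9.55 and 8.88 in KO replicates 1 to 5, against 9.42, 9.54, 8.99, 9.20 and 9.48 in WT. Its log2 ratios were -0.02, -0.08, -0.58, -0.61 and -0.84 in KO and -0.50, -0.53, -1.09, -0.24 and -0.17 in WT. KO and WT overlapped in both measures. ASMM10m6ADRACA1000312874, the next in input, had ratios between -0.91 and -0.38 in KO and between -1.05 and -0.51 in WT, which also overlapped.

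Between mice of 1 genotype, members varied more than other sites in the input. The median within-genotype SD of log2 input was 0.46 over members, against 0.22 over all 13940 probes tested. It exceeded 0.5 at 46.6% of members, compared with 5.70% of all probes tested. In the modified RNA the median SD was 0.39 for members and 0.39 for all probes tested, and in the ratio 0.43 and 0.37. Equally bright sites outside the ratio range were of both kinds. There were 54 of the highest 10% by ratio, where input SD exceeded 0.5 at 53, and 234 of the lowest 10%, where it did so at 20. Among the 7491 dimmer sites of intermediate ratio it did so at 2.67%. The median SD of the ratio was 0.60 in the bright sites of the highest 10% and 0.52 in those of the lowest 10%. Both lay above the 0.43 of members, and the dimmer sites had 0.34. The difference between these sets was not tested.

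Sites differed widely in how steady the ratio was. ASMM10m6ADRACA1004388684 had the smallest within-genotype SD of the ratio among members, 0.0911, with ratios between -0.72 and -0.58 in KO mice and between -0.80 and -0.48 in WT mice. ASMM10m6ADRACA1002179124 had the largest, 1.24. Its ratio was 1.16 in KO replicate 2, against -1.76, -3.39, -2.22 and -2.51 in KO replicates 1, 3, 4 and 5 and between -2.83 and -2.02 in WT mice. The input of that site in KO replicate 2 was 2.14, against 4.19 to 4.87 in the other KO mice, and its modified signal there was 2.78, against 2.28 in KO replicate 1.

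The spread of the members in the input was largely 1 shared pattern. The median input over members was 4.95, 4.70, 3.95, 3.78 and 3.83 in KO replicates 1 to 5, against 4.50, 4.23, 3.67, 4.42 and 3.90 in WT replicates 1 to 5. KO replicates 1 and 2 lay above all other mice, WT replicate 3 lay below them, and the genotypes overlapped. Averaged over mice the medians were 4.24 ± 0.55 in KO and 4.14 ± 0.35 in WT (SD, n = 5 each). KO replicate 1 was the highest mouse at 237 of 500 members and WT replicate 3 the lowest at 229. KO replicate 1 lay at least 1 log2 unit above the 10-mouse median at 158 members (31.6%), where 2.04% of all probes did so. The same held at 111 members in KO replicate 2 and at 56 in WT replicate 1, with all-probe shares of 1.47% and 3.19%. WT replicate 3 lay at least 1 unit below at 127 members, with an all-probe share of 1.56%.

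KO and WT mice overlapped along this pattern. The first principal component of the members' input profiles took 74.5% of their variance. Its scores were 0.56, 0.45, -0.21, -0.20 and -0.28 in KO replicates 1 to 5 and 0.15, 0.04, -0.52, 0.10 and -0.08 in WT. Over all probes the first component took 40.8% and ordered the mice otherwise. Its scores there were 0.28, 0.55, -0.09, 0.03 and 0.38 in KO and -0.46, -0.20, 0.14, -0.30 and -0.32 in WT. Over members centred by site, the input profiles of KO replicates 1 and 2 correlated with r = 0.92, and those of KO replicate 1 and WT replicate 3 with r = -0.90. With the spike-in RNA as the scale, the median input over members was 6.30, 6.41, 5.31, 5.22 and 5.66 in KO and 5.69, 5.60, 5.50, 5.65 and 5.24 in WT. KO replicates 1 and 2 were again the highest, but WT replicate 3 was no longer the lowest. On the same scale before dye normalization, the medians were 5.98, 6.15, 4.75, 4.84 and 5.19 in KO. In WT they were 5.00, 4.93, 5.02, 4.92 and 4.93. The WT mice then lay close together, with WT replicate 3 the highest of them, while KO replicates 1 and 2 stayed above all other mice.

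**Figure D2:**
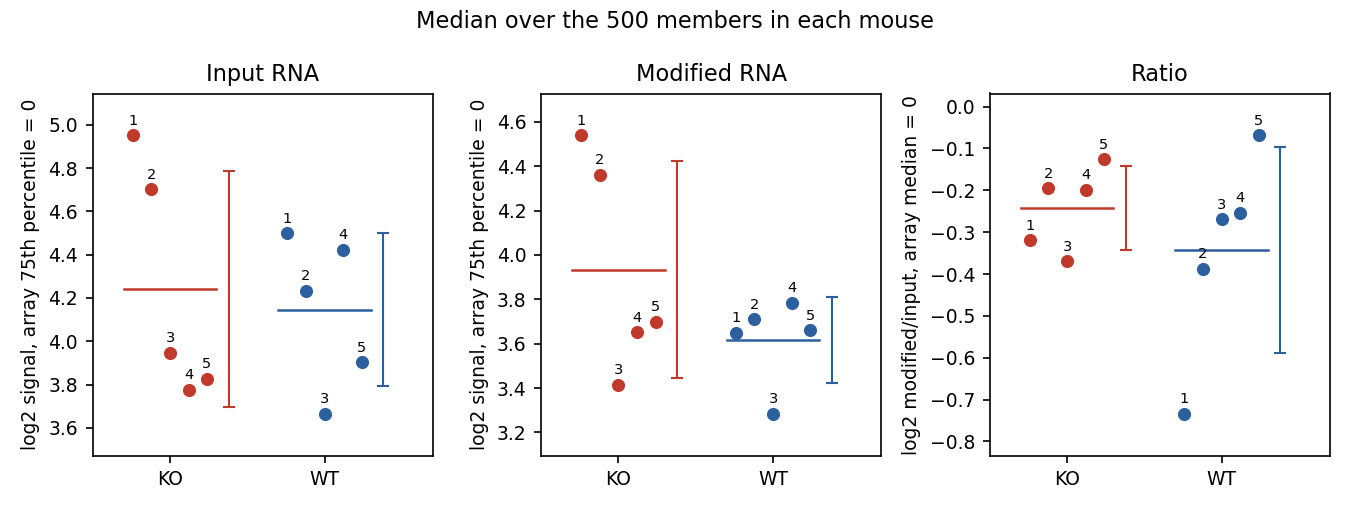
Median over the 500 members in each mouse, for log2 input, log2 modified signal and log2 ratio, with KO mice left of WT mice. Points are mice with their replicate numbers, horizontal lines are group means, and bars to the right of the points span the mean ± SD (n = 5 each). KO replicates 1 and 2 stand highest in both colours at 4.95 and 4.70 (input) and 4.54 and 4.36 (modified).

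The gap between mice was widest in the upper middle of the brightness range. Members were ranked by mean input and divided into 5 groups of 100. The median within-genotype input SD was 0.43, 0.67, 0.52, 0.39 and 0.33 over these groups, brightest to dimmest. In the second group the median input was 6.07, 5.85, 4.84, 4.92 and 4.80 in KO replicates 1 to 5, against 5.65, 5.48, 4.35, 5.40 and 5.12 in WT. KO replicate 1 and WT replicate 3 were its highest and lowest mice. In the dimmest group all 10 mice lay between 2.77 and 3.19, with WT replicate 1 the highest.

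**Figure D3:**
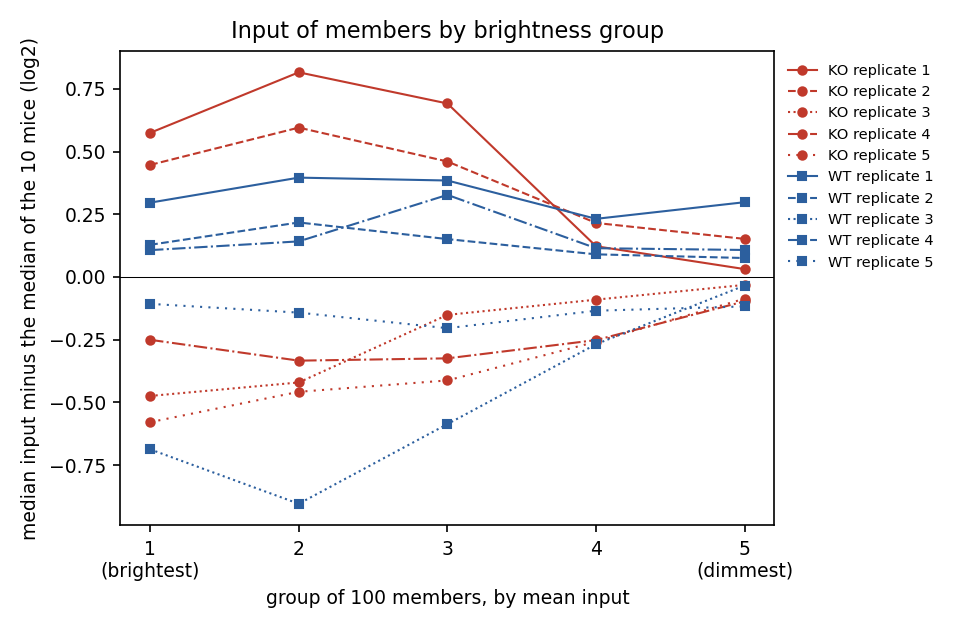
Median log2 input of each group of 100 members, as the difference from the median of the 10 mice, against the brightness group (1 brightest, 5 dimmest). Lines join the values of 1 mouse, with KO in red circles and WT in blue squares. KO replicates 1 and 2 lie above the other mice in the 3 brightest groups, and all mice draw together in the dimmest.

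In total, members carried a large part of the signal of their arrays. Their share of the summed input signal was 51.9%, 49.4%, 38.8%, 39.1% and 34.2% in KO replicates 1 to 5, and 43.5%, 41.7%, 31.0%, 43.6% and 45.9% in WT. Their share of the summed modified signal was 75.3%, 72.2%, 67.8%, 70.8% and 69.5% in KO and 64.1%, 66.8%, 64.8%, 71.5% and 70.4% in WT. The share was higher in modified than in input RNA in every mouse, and KO and WT overlapped in both. The size of the input share follows from the choice by brightness. Whether the higher share in modified RNA also follows from the choice was not tested. Members had to be detected in both colours. The ratio limits also removed 234 equally bright sites of the lowest 10% by ratio and 54 of the highest. This difference in share is thus description only.

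Whether the methylation reading of these sites differed between genotypes was asked first. No member's ratio was called different, where called means a Benjamini-Hochberg adjusted p under 0.05 in limma over all probes tested: 0 of 500, with a background of 0% (0 of 10056 probes). The smallest adjusted p among members was 0.290 in limma. At an unadjusted p under 0.05, 30 members (6%) were higher in KO, with a background of 4.08%, and 2 members (0.4%) were lower, with a background of 4.86%. No member had KO and WT ratios that failed to overlap, where 0.557% of all probes had all KO mice above and 1.05% all KO mice below WT. In a simulation on the same probes, the ratio test recovered 51% of members given a change of 1 log2 unit and 95% of those given 2. Smaller changes were not simulated, so a lack of calls does not show that they were absent. Noise was drawn independently for each probe, whereas in the data 1 shared component took 43.6% of the variance of the members' ratios. In the simulation many members were changed at once, which eases the Benjamini-Hochberg threshold. The rates may therefore be too high for a single changed site or a few, and recovery of these was not tested.

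The ratios of most members were nonetheless fitted above WT. The KO minus WT difference was positive at 386 of 500 members (77.2%), against 58.6% of all probes, with a median of 0.22 over members and 0.06 over all. Members were not alone in this. Equally bright sites outside the ratio range had medians of 0.54 (highest 10%, 54 sites) and 0.39 (lowest 10%, 234 sites). The 7491 dimmer sites of intermediate ratio had 0.04. With the spike-in RNA as the scale the members' median turned to -0.22 (all probes -0.08). Before dye normalization it was -0.10 (all probes 0.04), so the direction depended on the processing. The spike-in scaling of the ratio also used the signals before dye normalization. From the main values to these signals the members' median went from 0.22 to -0.10, and that of all probes from 0.06 to 0.04. Spike-in scaling then lowered both alike, to -0.22 and -0.08. Why the members' sign turned with dye normalization left out was not tested. The median ratio over members was -0.32, -0.20, -0.37, -0.20 and -0.13 in KO and -0.73, -0.39, -0.27, -0.25 and -0.07 in WT. WT replicate 1 stood lowest, and it was the lowest mouse at 223 members; WT replicate 5 stood highest, and the genotypes overlapped. The median difference was 0.11 without WT replicate 1 and 0.14 without KO replicate 2. With slide and row both blocked, the fit sets only KO replicate 3 against WT replicates 1 to 3, and the difference was -0.06. With the slide alone as a block, which leaves the contrast to slide 1, it was 0.36. It was 0.10 under normexp and 0.07 (all probes -0.09) in the authors' deposited table.

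The sites nearest to a call show how the ratio differed in size. ASMM10m6ADRACA1002405754 had ratios of -1.10, -1.05, -1.49, -1.62 and -1.41 in KO replicates 1 to 5, against -2.21, -2.03, -1.97, -1.87 and -1.44 in WT. Only WT replicate 5 reached into the KO range. Its difference was 0.57 with a standard error of 0.20 (limma adjusted p = 0.371). ASMM10m6ADRACA1002325694 had a difference of 0.52 with a standard error of 0.19 (limma adjusted p = 0.406), and again WT replicate 5 alone, at -1.76, overlapped the KO range of -1.97 to -1.57. In the negative direction, ASMM10m6ADRACA1000670574 had -1.03 with a standard error of 0.30 (limma adjusted p = 0.297) and ASMM10m6ADRACA1000380884 had -0.99 with a standard error of 0.28 (limma adjusted p = 0.290).

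**Figure D4:**
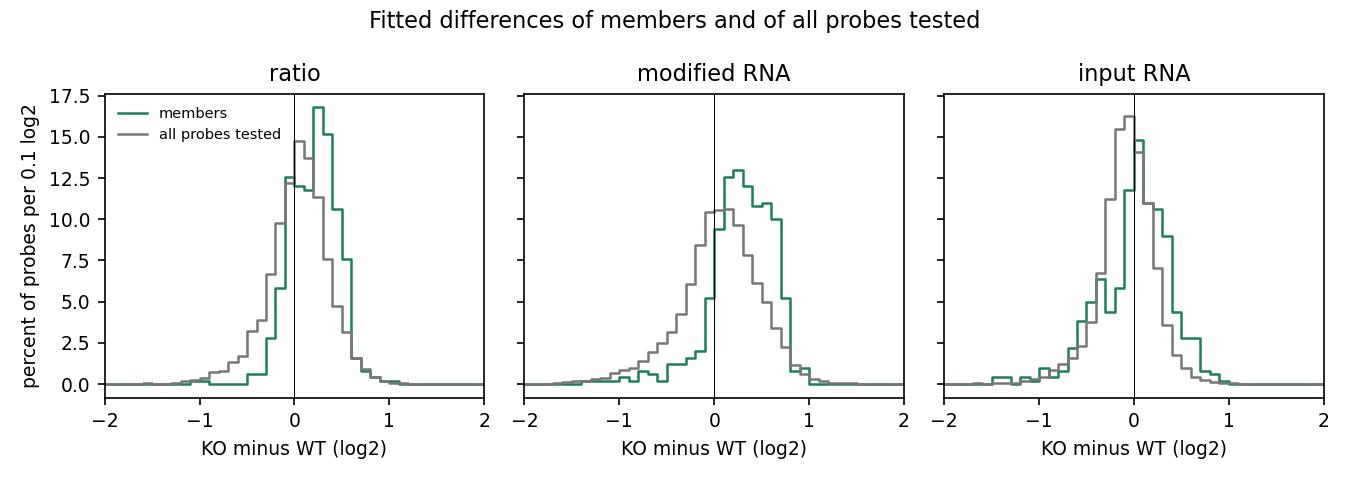
Fitted KO minus WT differences (log2) in ratio, modified RNA and input RNA, as the percent of probes in each bin, for members (green) and all probes tested (grey). The members' medians are 0.22, 0.31 and 0.04, against 0.06, 0.08 and -0.06 over all probes.

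In the modified RNA, 2 of 500 members were called, both lower in KO (0.4%), with a background of 1.08% over 10079 probes, 0.189% higher and 0.893% lower. The share called among members was thus below the background. ASMM10m6ADRACA1000670574 had log2 modified signals of 1.73, 2.83, 1.46, 2.27 and 2.29 in KO replicates 1 to 5, against 3.53, 3.14, 3.22, 4.14 and 3.16 in WT. Every KO mouse lay below every WT mouse. The site fell by 1.32 on the log2 scale (standard error 0.28, limma adjusted p = 0.0416), which is 2.50-fold lower in KO.

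The other called site moved in nearly the same way. ASMM10m6ADRACA1000380884 had 1.60, 2.45, 1.31, 2.32 and 2.18 in KO, against 3.36, 2.93, 3.08, 3.78 and 2.74 in WT, again without overlap. It fell by 1.21 on the log2 scale (standard error 0.27, limma adjusted p = 0.0472), or 2.31-fold. Input at these sites differed by -0.37 and -0.30, with limma adjusted p = 0.196 and 0.290. In both sites KO replicate 3 had the lowest and WT replicate 4 the highest modified signal. Whether the 2 probes lie on 1 transcript was not analysed here. With the slide as a block the limma adjusted p values were 0.0594 and 0.0598, and within slide 1 they were 0.0484 and 0.0451. ASMM10m6ADRACA1000670574 stayed called only without KO replicate 2 or WT replicate 2 and ASMM10m6ADRACA1000380884 only without KO replicate 4. Leaving out any other mouse ended the call, with limma adjusted p up to 0.147 and 0.165 (both without KO replicate 1). The differences stayed between -1.50 and -1.15 and between -1.33 and -1.04.

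No member was called higher in the modified RNA, although 82 members (16.4%, background 9.38%) had an unadjusted p under 0.05 in that direction and 13 (2.6%, background 6.87%) in the other. All KO mice lay above all WT mice at 8 members (1.6%, background 1.94%) and below at 7 (1.4%, background 1.89%). ASMM10m6ADRACA1001423684 came nearest, with 4.17, 3.89, 4.07, 3.61 and 3.37 in KO against 2.88, 3.19, 3.12, 3.07 and 3.11 in WT. These values did not overlap, and the difference was 0.75 with a standard error of 0.20 (limma adjusted p = 0.0801). ASMM10m6ADRACA1001819534 had a difference of 0.98 with a standard error of 0.27 (limma adjusted p = 0.101). Its KO values lay between 0.63 and 2.03 and its WT values between -0.07 and 0.58.

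The difference in modified RNA was positive at 429 members (85.8%), against 58.1% of all probes, with a median of 0.31 over members and 0.08 over all. Equally bright sites had medians of 0.53 (lowest 10% by ratio) and -0.20 (highest 10%), and dimmer sites of intermediate ratio had 0.06. Mice differed in the modified signal of members. The median modified signal over members was 4.54, 4.36, 3.42, 3.65 and 3.70 in KO replicates 1 to 5, against 3.65, 3.71, 3.28, 3.78 and 3.66 in WT. Only KO replicates 1 and 2 lay above the WT range, and they were the highest mice at 292 and 104 members. The means were 3.93 ± 0.49 in KO and 3.62 ± 0.19 in WT (SD, n = 5 each). The median difference was 0.19 without KO replicate 1 and 0.20 without KO replicate 2. Without both, an alternative chosen after seeing the data, the median difference over members was -0.03 in modified RNA, 0.12 in ratio and -0.30 in input.

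In the input RNA, 10 of 500 members were called, all lower in KO (2%), with a background of 1.66% over 13940 probes, 0.617% higher and 1.05% lower. The share was close to the background. At an unadjusted p under 0.05, 58 members were lower (11.6%, background 13.1%) and 6 higher (1.2%, background 6.85%). Groups did not overlap at 11 members with KO below (2.2%, background 2.1%) and at 3 with KO above (0.6%, background 2.51%). The median difference over all members was 0.04, against -0.06 over all probes, and it was positive at 285 members (57%, against 39.4% of all probes). This median had no stable size or sign, lying between -0.30 and 0.26 over the alternatives tried.

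The largest decreases in input belonged to a pair of sites with like profiles. ASMM10m6ADRACA1001818774 had log2 inputs of 3.41, 3.89, 3.98, 4.16 and 4.14 in KO replicates 1 to 5, against 6.15, 5.02, 5.02, 5.69 and 5.10 in WT. Its KO mice all lay below its WT mice. It fell by 1.48 on the log2 scale (standard error 0.23, limma adjusted p = 0.0129), or 2.79-fold. ASMM10m6ADRACA1004957014 had 4.10, 4.83, 4.64, 5.03 and 4.84 in KO, against 6.87, 5.77, 5.80, 6.39 and 6.0 in WT. It also fell by 1.48 (standard error 0.23, limma adjusted p = 0.0129), again 2.79-fold and without overlap. In both sites KO replicate 1 had the lowest input and WT replicate 1 the highest. KO replicate 1 was thus lowest at these sites, whereas its median over all members was the highest of the 10 mice.

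At these sites neither the modified RNA nor the ratio passed the test. The modified signal differed by -1.14 and -1.10, which missed the threshold (limma adjusted p = 0.0554 and 0.0655). The ratio differed by 0.26 and 0.30 (limma adjusted p = 0.803 and 0.754). With the slide as a block, the input difference was -1.48 and -1.46 (limma adjusted p = 0.0642 and 0.0655), so its size held while the call was lost. Within slide 1 the limma adjusted p values were 0.0998 and 0.105. Under normexp background correction the differences were -0.83 and -0.90 (limma adjusted p = 0.0957 and 0.0959). Both sites stayed called without any single mouse.

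**Figure D5:**
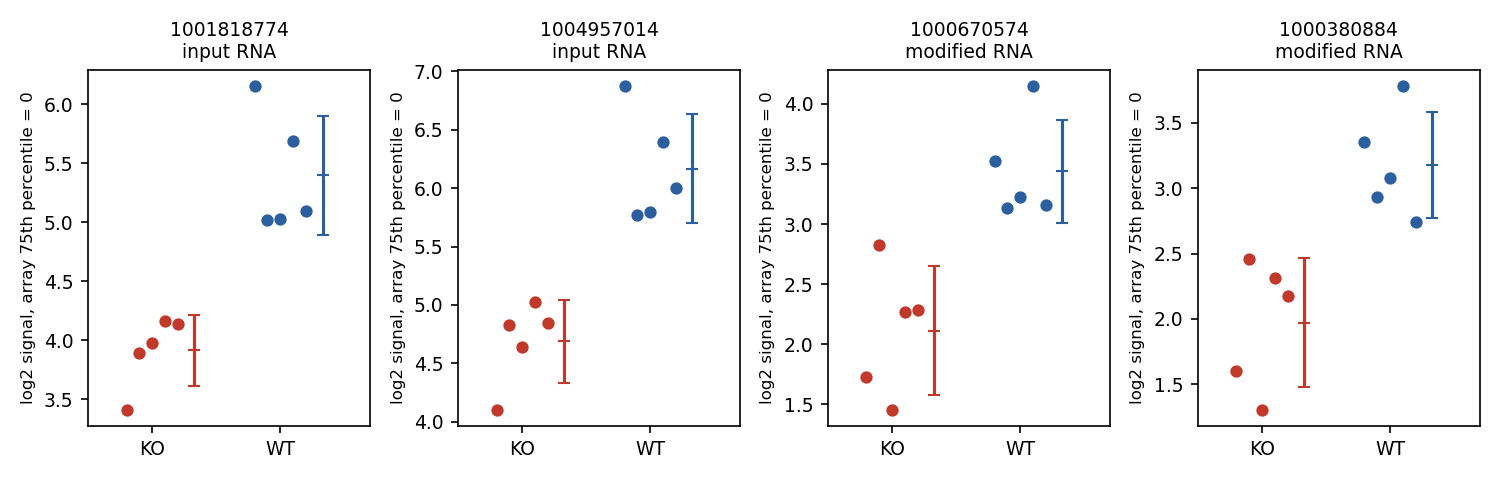
Log2 signal (75th percentile of the array at 0) in each mouse at the 2 members with the largest decrease in input and the 2 called in modified RNA, named by the last digits of the identifier, with KO left of WT. Points are mice in replicate order and bars are the mean ± SD (n = 5 each). At all 4 sites every KO mouse lies below every WT mouse.

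The other 8 called sites were alike in direction. Over all 10 the input differences lay between -1.48 and -0.67, or 1.60- to 2.79-fold lower in KO, with limma adjusted p between 0.0129 and 0.0448, and KO and WT did not overlap at 8 of them. The modified difference was negative at all 10, with a median of -0.72, and had an unadjusted p under 0.05 at 9, but 0 were called in limma. The ratio difference was positive at 9 and negative at 1, between -0.02 and 0.65, and the smallest limma adjusted p for the ratio was 0.553. By mean input they ranked between 69 and 449 of 500. Calls were 1, 3, 3, 2 and 1 over the 5 brightness groups, while both calls in modified RNA lay in the fourth group.

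No member was called higher in the input. ASMM10m6ADRACA1002700964 came nearest, with 3.67, 3.49, 3.93, 3.60 and 3.77 in KO against 2.92, 3.15, 3.48, 3.21 and 3.48 in WT. Its KO mice lay just above its WT mice, and the difference was 0.44 with a standard error of 0.13 (limma adjusted p = 0.104). ASMM10m6ADRACA1001629684 had a difference of 0.51 with a standard error of 0.15 (limma adjusted p = 0.107), with KO between 3.50 and 4.28 and WT between 3.11 and 3.62.

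The number of input calls depended strongly on single mice. Without WT replicate 3, 23 members were called, 2 higher and 21 lower. Without both mice numbered 3, 50 were called, 6 higher and 44 lower, and these included all 10. Without KO replicate 1, KO replicate 2, KO replicate 5 or WT replicate 4, 2 were called in each case, against 5 without WT replicate 1, 6 without WT replicate 2 and 4 without WT replicate 5. With the slide as a block, or without KO replicates 1 and 2 together, 0 were called in limma.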

How the data were processed

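Modified (Cy5) and input (Cy3) RNA of 10 mice were read from 10 two-colour scans. Per the file headers, each deposited scan holds intensity values. Agilent Feature Extraction 11.0.1.1 made them, a version the submitters' processing notes also name. Its processed signal has the background removed and the dyes balanced within each array by linear and lowess steps. The deposited value table holds log2 values, each column being log2 of the processed signal minus 1 constant, which the sources used here do not explain; it served as an alternative.

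Groups came from the labels. Control and outlier spots were left out. A probe entered a test if at least 5 of 10 arrays showed it well above background (for the ratio, in both colours). The log2 ratio was centred on the array median, and each colour on its 75th percentile over kept probes; the values that chose the members used all 14319 probes (single colour) or the 9987 detected probes (ratio), so they differ slightly from the tested values. KO and WT were compared in limma 3.58.1 (lmFit and eBayes, R 4.3.3) over all kept probes, with Benjamini-Hochberg adjustment at 0.05. The fits were tested on simulated data with 200 changed members. Recovery of changes of 1 and 2 log2 units was 52% and 94% in modified RNA and 42% and 70% in input.

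Members, lists and rules were chosen with earlier results of these data known. Named probes were, per measure and direction, at most 2: called with groups not overlapping and the largest change, or else the smallest unadjusted p; added for description were the 2 brightest, the threshold neighbours and the extremes of ratio SD. Same-numbered KO and WT mice did not deviate together. The alternatives were filters, scalings, background corrections, blocks, the deposited table, left-out mice and other member choices. The number of arrays limits the precision.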

Additional observations from a re-analysis of the deposited data

Results flagged for a closer look

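Of 44 sets of 5 mice examined, 2 held a mouse set apart from the other 4 of its genotype, and chance gives this in about 5% of sets. Both were summaries over members. WT replicate 3 had a median modified signal of 3.28 over members, and the nearest WT mouse had 3.65. Its members also held 31.0% of the summed input signal, and the nearest WT mouse had 41.7%.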

How the results depend on the processing

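The ratio gave 0 calls among members in limma under every alternative run, leaving out each mouse in turn included (0 to 0). Its median difference of 0.22 became -0.10 before dye normalization and -0.22 with spike-in scaling, which for the ratio also used signals before dye normalization. In every measure, blocking slide and row together sets only KO replicate 3 against WT replicates 1 to 3. With that block the median ratio difference was -0.059. It was 0.07 in the authors' deposited table, 0.10 with normexp and 0.36 with the slide as a block or within slide 1, and lay between 0.11 and 0.30 without single mice; the cause was not tested. In modified RNA the 2 calls became 11 (4 higher, 7 lower) with detection required on all 10 arrays, 6 in the authors' deposited table, 5 before dye normalization and 1 with the slide as a block, which was neither of the 2. They became 0 with no filter, spike-in scaling and normexp (offset 50). They also became 0 without both mice numbered 3 and without KO replicates 1 and 2 (chosen after seeing the data). Neither of the 2 lay among the 250 brightest members, a count within the main fit. Without single mice the count was 0 to 3. It was 0 without KO replicate 1, 3 or 5 or WT replicate 1, 3, 4 or 5, it was 1 without KO replicate 4 or WT replicate 2, and it was 3 without KO replicate 2. The modified median of 0.31 was -0.075 with slide and row as a block, 0.19 before dye normalization, 0.20 in the authors' deposited table, -0.03 without KO replicates 1 and 2, and 0.19 to 0.41 without single mice. In input the 10 calls became 6 with quantile normalization. Of the 10, 6 lay among the 250 brightest members, a count within the main fit. They became 2 before dye normalization and in the authors' deposited table, and 50 without both mice numbered 3. They became 0 with spike-in scaling, normexp, the slide as a block, within slide 1, and without KO replicates 1 and 2. Without single mice the count was 2 to 23. The input median of 0.04 was 0.26 with normexp, 0.22 with spike-in scaling, 0.17 before dye normalization, 0.16 in the authors' deposited table and 0.07 with quantile normalization, the slide as a block or within slide 1. It was negative with slide and row as a block (-0.13), without KO replicates 1 and 2 (-0.30), without both mice numbered 3 (-0.0066) and for members chosen on the WT arrays (-0.0093), and lay between -0.08 and 0.11 without single mice. With the replicate number as a block, 0 members were called in ratio, 0 in modified RNA and 0 in input in limma; same-numbered mice correlated between -0.25 and 0.21, so the numbers did not pair them. Of the alternatives tried on the named probes, 230 values kept direction and side of the threshold, 48 lost it and 6 gained it, and 0 turned round. All 48 losses fell at results called in the main fit, as the others had no call to lose. In modified RNA, ASMM10m6ADRACA1000670574 kept its call in 8 of 24 alternatives and ASMM10m6ADRACA1000380884 in 7. In input, ASMM10m6ADRACA1001818774 kept its call in 17 of 24 and ASMM10m6ADRACA1004957014 in 16. Quantile normalization was not run for the ratio.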
